A study of Mus musculus with 59 samples.

Results

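Livers of arsenite-injected mice that also received dexamethasone were compared with livers of mice that received arsenite without it. The comparison takes every array carrying 1 of these 2 injection labels, which is 10 of the 59 arrays in the study, 5 in each group. The tested mice had an intraperitoneal injection of 1 mg/kg dexamethasone and 1 mg/kg sodium arsenite in saline, and the mice they are set against had 1 mg/kg sodium arsenite in saline. A further 2 groups of 5 arrays from the same experiment, injected with 1 mg/kg dexamethasone or with saline, give the dexamethasone difference without arsenite. All 4 groups were C57BL/6 males that entered at 6 weeks of age, spent 2 weeks on the purified AIN-76A diet and were sampled 8 hours after the injection, with no arsenite in food or water. Since both groups of the main comparison carry arsenite, their difference measures dexamethasone in its presence and not arsenite. RNA of frozen liver was hybridised to Affymetrix expression arrays, 1 array per sample, so precision is limited by having 5 arrays a group. Samples of 1 group are labelled as biological replicates, and p-values reflect the spread among them.

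Dexamethasone is a synthetic glucocorticoid. It binds the glucocorticoid receptor, a nuclear receptor that moves into the nucleus, binds DNA at inverted repeats of a short element and raises or lowers transcription of nearby genes. In liver, glucocorticoids are known for raising glucose production and amino acid breakdown, for altering lipid handling and for damping inflammatory and interferon genes. Inorganic arsenic is a toxic metalloid that liver takes up through aquaglyceroporins, methylates and binds to thiols such as glutathione. The design asks how the hormone response of the liver stands when arsenite is present.

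Values are log2 expression levels per probe set, a group of short probes for 1 transcript. A difference of 1 is a doubling. A gene with several probe sets is represented by its brightest one, taken over all 59 arrays, which leaves 18193 genes. Below, treated arrays are those given dexamethasone as well as arsenite. Standard errors (SE) come from 1 spread per probe set over the 20 arrays of the 4 injection groups, tested with limma, and adjusted p-values are Benjamini-Hochberg values over 45037 probe sets. A gene passed where its adjusted p was under 0.05. Array medians lay between 2.42 and 2.55 in all 20 arrays, so levels near 2 are dim and differences that involve them can be understated.

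Hepatocyte markers were uniform, with a mean level of 10 measured markers of 12.53 to 12.69 in the dexamethasone with arsenite arrays and 12.50 to 12.61 in the arsenite arrays. Some arrays stood apart from their group. Array E of the dexamethasone with arsenite group had its highest correlation with any other array at 0.975, against 0.980 to 0.993 for the other 4 of its group. In it the male-biased liver genes averaged 6.88, against 8.88 to 10.42 in the other 4, with Hsd3b5, a steroid dehydrogenase of male liver, at 2.90. Its Xist level of 2.67 lay within the 2.12 to 2.95 of the other 19 arrays, and its level of the Y-linked gene Eif2s3y, 5.52, within their 4.64 to 7.88. Whether array E belongs to its label could not be settled from these values. The proliferation genes Mki67 and Top2a stood at 4.20 and 5.07 in array E, against at most 2.60 and 2.52 in the other 4. The collagen gene Col3a1 stood at 9.47 in array E, against 4.33 to 5.75. Array A had the highest neutrophil marker level of the same group, 4.21, against 2.33 to 2.76 in its other 4 arrays. Among the arsenite arrays, F held the immediate early genes at a mean of 6.41, against 3.88 to 4.33, with Fos at 10.94 where the other 4 lay between 2.67 and 3.04. The upper quartile of array D was the lowest of the arsenite group, 3.85. In each group 1 array with a low upper quartile and a low score on the main component of within-group variation (E and D above, C of dexamethasone and F of saline) was left out together in an alternative fit.

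Dexamethasone changed 397 probe sets in arsenite-injected mice, of which 261 were higher and 136 lower, so that 0.881% of probe sets passed. At the level of 1 probe set per gene, 233 of 18193 genes passed (1.28%), 152 higher (0.835%) and 81 lower (0.445%). The 5 arrays of one group did not overlap the 5 of the other for 906 probe sets (2.01%), and for 184 of the 233 genes that passed. The median difference over all genes was -0.004. Without array E of the dexamethasone with arsenite group 487 probe sets passed, and without the 4 arrays named above 391 passed. The count depended on the arrays that set the spread, since 119 probe sets passed in a fit of these 10 arrays alone and 219 without array C of the dexamethasone with arsenite group. Of the 38 passing genes named in this text, 25 passed under all 20 alternative settings, and the other 13 all lost the call in the fit of the 10 arrays alone.

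The largest rise was in Fam107a, which encodes an actin-binding protein known to respond to stress hormones. Its levels were 5.98, 9.87, 8.54, 6.55 and 7.87 in dexamethasone with arsenite arrays A, C, D, E and F, against 1.85, 1.97, 2.00, 1.83 and 2.14 in arsenite arrays A, B, D, E and F. The groups did not overlap, and each arsenite array held the gene below its array median, so no fold is given. The rise was 5.80 ± 0.53 on the deposited log2 scale (SE, n = 5 each, limma adjusted p = 2.5e-05). Fkbp5, a co-chaperone that lowers the hormone affinity of the glucocorticoid receptor, stood at 10.15, 9.94, 10.17, 8.61 and 9.64 with dexamethasone and arsenite, against 7.08, 5.20, 4.46, 7.21 and 4.71 with arsenite. The groups again did not overlap, the lowest treated array was E, and the arsenite arrays split into A and E near 7 and the other 3 near or below 5. It rose by 3.97 ± 0.55 (adjusted p = 0.000863).

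Lpin1 encodes lipin, a phosphatidate phosphatase of triglyceride synthesis that also acts as a transcriptional coactivator. Its levels were 11.35, 11.41, 11.22, 9.85 and 10.49 in the dexamethasone with arsenite arrays, against 7.02, 7.96, 7.17, 8.05 and 8.34 in the arsenite arrays, with no overlap. The rise was 3.15 ± 0.40 (adjusted p = 0.000425). Cdkn1a, an inhibitor of cyclin-dependent kinases, stood at 9.62, 9.06, 8.89, 8.27 and 8.15, against 5.91, 4.74, 4.50, 6.84 and 5.07 with arsenite. Every treated array lay above every arsenite array, and the rise was 3.39 ± 0.58 (adjusted p = 0.00577). Rrm2, the small subunit of ribonucleotide reductase, which makes deoxynucleotides, rose by 3.14 ± 0.39 (adjusted p = 0.000321). Its levels were 5.85, 8.11, 7.94, 7.46 and 7.37 with dexamethasone and arsenite, against 4.59, 4.21, 3.55, 3.43 and 5.25 with arsenite, so the groups were separate although array A was the lowest of its group.

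**Figure D1:**
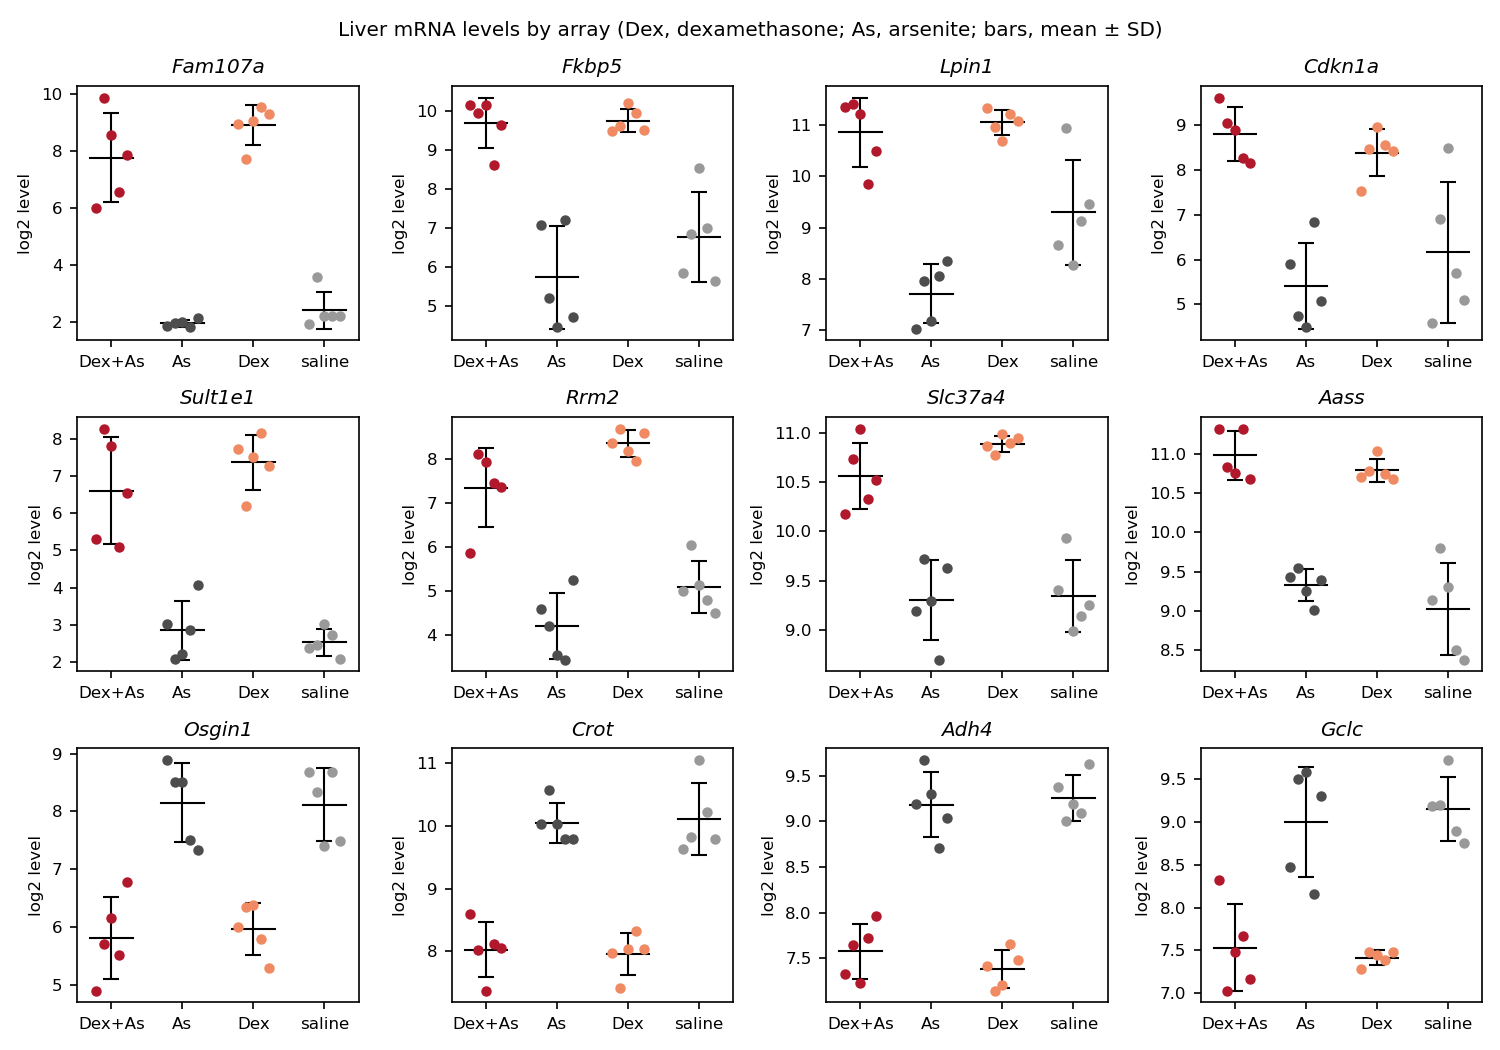
Log2 level of 12 genes in each of the 20 arrays of the injection experiment. Points are arrays, ordered by replicate letter from left to right within a group, and the lines give the group mean and SD. For 11 of the genes the 5 dexamethasone with arsenite arrays lie wholly above or wholly below the 5 arsenite arrays, and for Gclc 1 array of each group overlaps.

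Both sulfotransferases among the largest rises join sulfate to small molecules. Sult1e1, which inactivates estrogens, stood at 5.30, 8.27, 7.80, 5.09 and 6.54 with dexamethasone and arsenite, against 3.04, 2.08, 2.23, 2.88 and 4.08 with arsenite. It rose by 3.74 ± 0.53 (adjusted p = 0.00105), and treated arrays A and E were the lowest. Sult1d1, which acts on catecholamines and related compounds in mice, rose by 2.56 ± 0.38 (adjusted p = 0.00152). Cyp39a1, an oxysterol hydroxylase of bile acid synthesis, rose by 2.13 ± 0.32 (adjusted p = 0.00172), and its groups did not overlap.

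The remaining large rises span membranes, organelles and signals. Ccn2, the connective tissue growth factor, averaged 5.87 ± 1.20 with dexamethasone and arsenite and 3.33 ± 0.40 with arsenite (SD, n = 5 each), a rise of 2.53 ± 0.46 (SE). Treated array F was the lowest of its group, just above the highest arsenite array at 3.89, and the call was lost without the 4 arrays that stood apart (adjusted p up to 0.076 over the alternatives). St3gal5, which makes the ganglioside GM3, rose by 2.36 ± 0.35, and Pigf, an enzyme of the glycosylphosphatidylinositol anchor pathway, rose by 2.19 ± 0.30. Pigf stood at 7.54 to 7.62 in 4 treated arrays and at 6.12 in array E, against 4.08 to 6.04 with arsenite. Retreg1, a receptor for autophagy of the endoplasmic reticulum, rose by 2.14 ± 0.29. Plin5, a coat protein of lipid droplets, stood at 8.78, 9.98, 9.38, 9.07 and 8.71, against 7.67, 7.05, 6.78, 6.84 and 7.02, and rose by 2.11 ± 0.25 (adjusted p = 0.000249). Its groups were more than 1 log2 unit apart at the nearest arrays. Atp1b1, a subunit of the sodium pump, rose by 1.92 ± 0.30, with 1 of its 5 probe sets of opposite sign and not passing.

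The glucocorticoid receptor binds an inverted repeat with the core ACANNNTGT, and the full element has AGA before and TCT after that core. Both read the same on either strand, and the full element contains the core. The promoter windows of RefSeq for the GRCm38.p6 mouse build, each from 250 bases before to 50 bases after a start site, were searched for these letters to set the members that rose together beside their sequence. The full element occurs in 3 of 32851 windows (0.00913%) and in no window of the genes that passed. The core occurs in 2249 windows (6.85%). Counted by gene, 13 of 128 genes higher with dexamethasone and listed in the table hold the core (10.2%), against 2 of 68 lower genes (2.94%) and 881 of all 14452 measured genes (6.1%). Of the 38 passing genes named here, 33 have a window in the table and 3 hold the core. These 3, all higher with dexamethasone, are shown for the 250 bases before the start, 5′ to 3′ on the gene's strand, with the core in capitals.
Fam107a, chr14:8309780-8310029, minus strand: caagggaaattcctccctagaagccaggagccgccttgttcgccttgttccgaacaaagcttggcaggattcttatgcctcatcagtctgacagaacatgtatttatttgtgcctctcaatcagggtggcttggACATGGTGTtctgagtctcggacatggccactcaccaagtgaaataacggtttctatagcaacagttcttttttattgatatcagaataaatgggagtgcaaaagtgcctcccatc
Retreg1, chr15:25940452-25940701, plus strand: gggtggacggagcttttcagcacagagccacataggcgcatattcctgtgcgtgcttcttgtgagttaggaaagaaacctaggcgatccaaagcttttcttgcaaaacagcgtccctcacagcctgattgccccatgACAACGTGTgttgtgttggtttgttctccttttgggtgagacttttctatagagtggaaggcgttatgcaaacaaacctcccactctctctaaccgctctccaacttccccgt
Tdo2, chr3:81975729-81975978, minus strand: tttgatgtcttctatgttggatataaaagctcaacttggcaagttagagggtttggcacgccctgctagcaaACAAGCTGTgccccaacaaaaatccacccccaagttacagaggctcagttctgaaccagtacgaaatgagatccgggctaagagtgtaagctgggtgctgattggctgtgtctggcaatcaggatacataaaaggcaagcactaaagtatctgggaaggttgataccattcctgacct
Its first base lies 116, 113 and 178 bases before the start in these windows. A gene can have several windows, and the first one with the core is shown. The core stands in 2 of 3 windows of Fam107a, 1 of 4 of Retreg1 and 1 of 1 of Tdo2. A match of these letters is a description and not a binding site, and binding was not measured here.

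Among the falls, Osgin1, an oxidative stress-induced growth inhibitor, had the largest difference. It stood at 4.89, 5.70, 6.16, 5.51 and 6.78 with dexamethasone and arsenite, against 8.90, 8.51, 8.51, 7.51 and 7.34 with arsenite, and fell by 2.35 ± 0.36 on the log2 scale (adjusted p = 0.00247). The groups did not overlap. Gbp6, a guanylate-binding protein of the interferon-inducible family, stood at 2.49, 2.98, 2.58, 2.40 and 3.27, near the array medians, against 4.92, 5.46, 4.55, 4.32 and 5.35 with arsenite. Its fall of 2.18 ± 0.22 had an adjusted p of 4.48e-05, and no treated array came within 1 log2 unit of the lowest arsenite array.

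Single metabolic enzymes were also among the named falls. Crot, the peroxisomal carnitine octanoyltransferase, stood at 8.59, 8.02, 7.37, 8.11 and 8.05 with dexamethasone and arsenite, against 10.03, 10.58, 10.03, 9.79 and 9.79 with arsenite. It fell by 2.01 ± 0.25 (adjusted p = 0.000362), with the groups well apart, and 1 of its 2 probe sets passed. Adh4, an alcohol dehydrogenase that also acts on retinol, stood at 7.32, 7.64, 7.23, 7.72 and 7.96, against 9.19, 9.68, 9.30, 8.71 and 9.04, and fell by 1.61 ± 0.17 (adjusted p = 7.1e-05). All 5 treated arrays were lower than all 5 arsenite arrays. Nudt7, a peroxisomal hydrolase of coenzyme A, fell by 1.35 ± 0.20 (adjusted p = 0.00172), and 2 of its 4 probe sets passed.

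The other named falls concern transport, adhesion and receptors. Slc17a2, of a family of anion and phosphate transporters, fell by 1.62 ± 0.16 (adjusted p = 4.48e-05), with levels of 6.76 to 7.62 in the treated arrays, against 8.67 to 9.22 in the arsenite arrays. Lin7a, a scaffold protein of cell junctions, fell by 1.86 ± 0.29, and Tlcd2, a membrane protein, fell by 1.72 ± 0.28. Efna1, a ligand of Eph receptors, fell by 1.60 ± 0.27. Fermt2, a coactivator of integrins, fell by 1.31 ± 0.20, and Adra1b, the alpha-1B adrenergic receptor through which catecholamines act on liver, fell by 1.30 ± 0.22. All 6 had no overlap between the 2 groups.

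Genes known to be induced by glucocorticoids were described as a list of 26, all measured. Like the other lists it was chosen with earlier results of these data known, so its counts are a description. In all 6 of 26 rose, against 0.835% of all genes, 0 fell, and 20 did not pass. The median difference was 1.02, and 23 of the 26 were above 0. Without array E the same number, 6, passed, 5 passed without the 4 arrays that stood apart, and 3 in the fit of the 10 arrays alone. The mean level of the list was 8.34 to 8.96 in the dexamethasone with arsenite arrays, against 6.88 to 8.04 in the arsenite arrays, so the groups did not overlap. Besides Fkbp5, Cdkn1a and Lpin1, the members that rose were Tdo2, Tsc22d3 and Per1. Tdo2, tryptophan dioxygenase, the first enzyme of tryptophan breakdown, stood at 12.71, 12.91, 12.71, 12.79 and 12.54, against 10.90, 12.12, 12.10, 11.04 and 11.89, and rose by 1.12 ± 0.21 (adjusted p = 0.012). Its treated arrays were tight and the arsenite arrays A and E were the lowest.

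Tsc22d3, the glucocorticoid-induced leucine zipper protein, stood at 8.71, 8.99, 9.09, 7.26 and 8.49, against 6.80, 8.09, 7.17, 5.99 and 6.86, and rose by 1.53 ± 0.34 (adjusted p = 0.0347). Treated array E lay below arsenite array B, so its groups overlapped, and 1 of its 4 probe sets had the opposite sign. Per1, a clock gene with glucocorticoid elements, rose by 1.06 ± 0.25 (adjusted p = 0.046), and also overlapped. Both calls were borderline, since the adjusted p reached 0.226 for Tsc22d3 and 0.145 for Per1 when single arrays or other choices were changed. Zbtb16, a transcription factor induced by steroids, differed by 1.74 ± 0.44 without passing (adjusted p = 0.0784), with treated array E at 4.87 where the other 4 lay between 6.27 and 7.02. Tat, the tyrosine aminotransferase long used as a glucocorticoid target, differed by 0.83 ± 0.21 (adjusted p = 0.0838). Its treated arrays spanned 11.43 to 12.50, against 10.79 to 11.46 in the arsenite arrays, an overlap by 1 array of each group.

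The metallothionein genes Mt1 and Mt2, which bind metals and respond to both glucocorticoids and metals, split the arsenite group. Mt1 stood at 12.87, 11.80, 12.15, 11.90 and 12.11 with dexamethasone and arsenite, against 12.61, 7.05, 7.14, 12.86 and 6.89 with arsenite. Arsenite arrays A and E were thus as high as the treated arrays, and B, D and F more than 4 log2 units lower. The second of the 2 Mt1 probe sets had the opposite sign. Mt2 had the same split, at 11.81 and 12.31 in arsenite arrays A and E against 4.73, 4.88 and 5.60 in B, D and F. The differences of 2.86 ± 1.01 for Mt1 and 2.57 ± 1.29 for Mt2 did not pass (adjusted p = 0.274 and 0.524). Acute phase proteins followed the same arrays, with a list mean of 12.07 and 12.27 in arsenite arrays A and E and 9.78 to 10.60 in the other 3, and their part in the metallothionein levels was not tested. The genes for the receptor itself and its hormone supply did not pass. Nr3c1, the glucocorticoid receptor, differed by -0.04 ± 0.21, and Hsd11b1, which regenerates active hormone, by -0.02 ± 0.23. None of the 11 measured members of that list was under an unadjusted p of 0.05 by limma, against 13.1% of all genes.

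**Figure D2:**
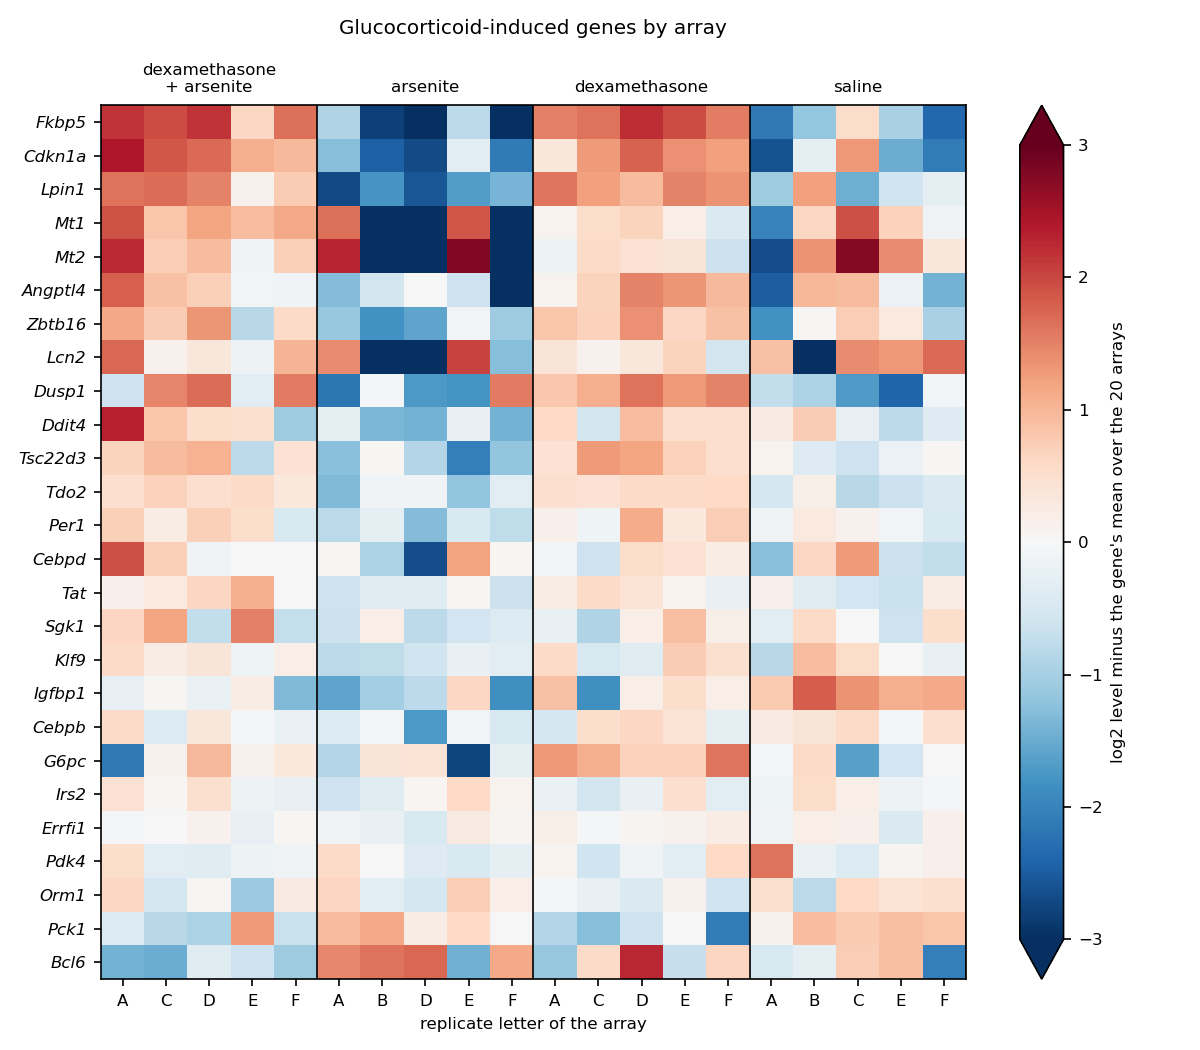
The 26 genes of the glucocorticoid-induced list (rows, sorted by the difference between dexamethasone with arsenite and arsenite) in the 20 arrays (columns, replicate letters by group). Colour is the log2 level minus the gene's mean over the 20 arrays, and values beyond 3 in either direction take the end colour. Fkbp5, Cdkn1a and Lpin1 are high in the 5 dexamethasone with arsenite arrays, and Mt1, Mt2 and Lcn2 are high in arsenite arrays A and E and low in B and D.

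Of 16 measured genes of gluconeogenesis, 2 rose and 1 fell, where 0.835% of all genes rose and 0.445% fell, and the median difference was 0.38. Slc37a4, the transporter that brings glucose-6-phosphate into the endoplasmic reticulum for glucose release, stood at 10.18, 10.73, 11.04, 10.33 and 10.52, against 9.19, 9.72, 9.30, 8.70 and 9.63 with arsenite. It rose by 1.25 ± 0.19 (adjusted p = 0.00237) without overlap. Gpt2, a mitochondrial alanine aminotransferase that turns alanine into pyruvate, rose by 0.98 ± 0.18 (adjusted p = 0.00914). Aqp9, the aquaglyceroporin that takes up glycerol and is also a route of arsenite into hepatocytes, stood at 9.21, 9.65, 9.58, 9.08 and 9.71, against 10.15, 10.24, 10.37, 10.03 and 10.07. It fell by 0.72 ± 0.12 (adjusted p = 0.00441), with every treated array below every arsenite array. The rate-setting enzyme gene Pck1 differed by -0.89 ± 0.39 and G6pc, the catalytic subunit of glucose-6-phosphatase, by 0.51 ± 0.58, and neither passed (adjusted p = 0.423 and 0.839). Foxo1, a transcription factor of this pathway, differed by 1.01 ± 0.26 (adjusted p = 0.0798) without overlap, and 1 of its 4 probe sets had the opposite sign. None of 12 genes of glycogen and glucose uptake passed by limma. At an unadjusted p under 0.05, where 13.1% of all genes stood in either direction, 2 of the 12 were higher. Among them Ppp1r3c, a glycogen-targeting phosphatase subunit, was at 10.59, 10.53, 10.18, 7.39 and 9.12, against 8.65, 8.51, 8.80, 7.20 and 6.55, a difference of 1.62 ± 0.53 in which treated array E lay among the arsenite arrays.

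Amino acid breakdown and the urea cycle had 3 genes that rose of 18 measured, against 0.835% of all genes, and none that fell, with a median of 0.39. Aass, the first enzyme of lysine breakdown, stood at 11.31, 10.83, 10.75, 11.32 and 10.68, against 9.43, 9.55, 9.26, 9.01 and 9.39. It rose by 1.65 ± 0.21 (adjusted p = 0.000425), and the nearest arrays of the groups were more than 1 log2 unit apart. Asl, the argininosuccinate lyase of the urea cycle, rose by 1.42 ± 0.29 (adjusted p = 0.0174), and the third was Tdo2. The Asl call was lost without treated array D, without the 4 arrays that stood apart and in the fit of the 10 arrays alone, with adjusted p up to 0.0879 over the alternatives. Arg1, the arginase that releases urea, differed by 0.50 ± 0.15 without passing (adjusted p = 0.176), although all 5 treated arrays, at 12.29 to 13.09, lay above the arsenite arrays, at 11.86 to 12.28. Hpd, an enzyme of tyrosine breakdown, differed by 0.54 ± 0.17 (adjusted p = 0.191). Of 14 transporters of amino acids and other solutes, 1 rose, against 0.835% of all genes. Slc43a1, a carrier of large neutral amino acids, stood at 5.04, 5.20, 5.00, 5.20 and 5.26, against 4.21, 3.95, 3.80, 4.55 and 4.30, and rose by 0.98 ± 0.18 (adjusted p = 0.00875). Slc38a3, a glutamine carrier, differed by -0.69 ± 0.16 and missed the threshold (adjusted p = 0.0557).

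Of 18 measured genes of the insulin, insulin-like growth factor and growth hormone axis, 1 fell, against 0.445% of all genes. None rose, and the list median was 0.06. Ghr, the growth hormone receptor, stood at 9.53, 10.16, 10.04, 9.30 and 10.09, against 10.87, 11.16, 11.06, 10.41 and 11.22. It fell by 1.12 ± 0.20 (adjusted p = 0.00779), with no overlap. Igfals, which stabilises circulating growth factor, differed by -0.58 ± 0.22, Igfbp3, a binding protein, by 1.00 ± 0.28, and Igf1 itself by 0.16 ± 0.13, none of them passing. Of 11 male-biased liver genes, which depend on the growth hormone pattern, 1 was lower at an unadjusted p under 0.05 by limma. Over all genes 13.1% stood at that level in either direction. In that list 0 of 11 passed, all 11 were below 0, and the median was -0.46. Array E set much of this. Without it the median was -0.06, and Elovl3, a fatty acid elongase of male liver, stood at 6.07 in array E and at 7.35 to 11.18 in the other 4 treated arrays, against 9.83 to 10.91 with arsenite.

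Cholesterol synthesis and uptake was the list with the lowest median. Of 17 measured genes 1 fell, against 0.445% of all genes, and none rose. The median was -1.09 against -0.004 over all genes, and 16 of 17 were below 0. Sc5d, the sterol desaturase late in the pathway, stood at 8.80, 8.30, 9.12, 9.06 and 8.58, against 10.20, 9.83, 10.08, 10.50 and 10.65, and fell by 1.48 ± 0.19 (adjusted p = 0.000366). Its groups did not overlap. Of its 3 probe sets, all with a lower value, 1 passed. The other members of the list varied widely among the arsenite arrays. Hmgcs1, which makes the precursor of mevalonate, stood at 7.56, 8.01, 9.03, 9.23 and 8.27, against 10.74, 8.87, 9.67, 11.18 and 9.64, and its difference of -1.60 ± 0.47 did not pass (adjusted p = 0.151). Nsdhl, a sterol dehydrogenase, differed by -1.43 ± 0.47 and Cyp51, the lanosterol demethylase, by -1.26 ± 0.48, both high in arsenite arrays A and E. Insig1, the sterol-sensing retention protein, differed by -1.24 ± 0.49 (adjusted p = 0.351). The list mean was 6.26 to 7.77 in treated arrays, against 6.92 to 8.94 in arsenite arrays, and the median was -1.28 without the 4 arrays that stood apart.

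Of 22 genes of fatty acid and triglyceride synthesis, Lpin1 was the 1 that rose, against 0.835% of all genes. None of the 22 fell, and the list median was -0.10. The list does not hold every fatty acid elongase, and an elongase outside it passed as lower. Elovl5, an elongase of polyunsaturated fatty acids, differed by -1.03 ± 0.27 (adjusted p = 0.0855), with treated array A at 11.04 among the arsenite arrays. Crot, which fell, is not in the list of fatty acid oxidation. None of the 22 measured genes of that list passed. At an unadjusted p under 0.05 by limma 2 were higher and 3 lower, against 13.1% of all genes. Ppara, the nuclear receptor that drives this pathway, stood at 7.76, 6.33, 6.00, 6.45 and 5.46, against 7.95, 7.65, 8.34, 6.95 and 7.49. Treated arrays other than A lay below all arsenite arrays, and the difference of -1.28 ± 0.35 did not pass (adjusted p = 0.114), but passed without array A and under 3 other settings. None of 16 bile acid genes passed, with 2 higher and 3 lower at an unadjusted p under 0.05, against 13.1% of all genes. Cyp7a1, which sets the rate of bile acid production, was at 8.08, 9.10, 6.00, 9.36 and 6.23, against 6.38, 5.57, 6.65, 4.68 and 5.65, a spread that left its difference of 1.97 ± 0.70 short of the threshold (adjusted p = 0.283).

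The Nrf2 and glutathione genes, which respond to electrophiles and arsenic, had 1 that fell of 23 measured, against 0.445% of all genes. None rose, and the list median was -0.05. Gclc, the catalytic subunit of glutamate-cysteine ligase and the rate-limiting step of glutathione synthesis, stood at 8.32, 7.03, 7.48, 7.67 and 7.17, against 8.47, 9.50, 9.58, 8.16 and 9.30. It fell by 1.47 ± 0.27 (adjusted p = 0.00899), and treated array A overlapped arsenite array E. Its partner Gclm, the modifier subunit, differed by -0.61 ± 0.16 (adjusted p = 0.0905). The glutathione transferases Gstm3 and Gstm2 went the other way in 4 of 5 treated arrays. Gstm3 stood at 5.97, 10.43, 10.35, 11.70 and 9.12, against 6.80, 7.18, 7.54, 6.08 and 7.78, so that array A was the lowest of all 10 and the other 4 were above every arsenite array. Its difference of 2.43 ± 0.71 did not pass (adjusted p = 0.14). Gstm2 differed by 1.32 ± 0.39 (adjusted p = 0.144). Both passed without array A and in the fit of all 59 arrays. Gstm genes are close paralogs, and probe sets of 1 may read another.

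Of 15 genes of arsenic uptake, reduction and methylation, 1 fell, Aqp9, against 0.445% of all genes. None rose, and the list median was 0.05. As3mt, the arsenic methyltransferase, stood at 7.74, 6.96, 7.29, 7.25 and 7.04, against 7.38, 6.24, 5.96, 7.38 and 6.81, a difference of 0.50 ± 0.23 that did not pass (adjusted p = 0.456). Ahcy, which clears the by-product of methylation, was at 11.63 to 11.76, against 10.74 to 11.51, without overlap, but its difference of 0.55 ± 0.14 missed the threshold (adjusted p = 0.0771). Sult1d1 was the 1 conjugation gene of 17 that rose, against 0.835% of all genes. No gene of the cytochrome P450 list (23 measured), of heat shock and metal response (19) or of the unfolded protein response (19) passed by limma. At an unadjusted p under 0.05 these lists held 3 higher and 0 lower, 1 higher and 2 lower, and 1 higher and 2 lower genes. Over all genes 13.1% stood at that level in either direction. Hspa1b, an inducible heat shock chaperone, was at 6.02 to 7.71 with dexamethasone and arsenite, against 6.39 to 9.31 with arsenite, where A, E and F were high, and its difference of -1.19 ± 0.52 did not pass (adjusted p = 0.426).

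Interferon-induced genes were mostly lower without any of the 21 passing by limma. The median was -0.53, 19 of 21 were below 0, and 11 were lower and 1 higher at an unadjusted p under 0.05, where 13.1% of all genes stood in either direction. The list mean was 4.61, 4.16, 4.33, 4.89 and 4.83 with dexamethasone and arsenite, against 5.18, 5.31, 4.85, 4.84 and 5.35 with arsenite, so the groups met at treated array E and arsenite arrays D and E. Without array E the median was -0.74 and 2 genes passed, both lower. Ifit1, an antiviral RNA-binding protein, stood at 2.43, 2.45, 2.94, 5.17 and 4.18, against 5.09, 5.45, 4.45, 4.30 and 5.21, and its difference of -1.47 ± 0.39 had an adjusted p of 0.0953. Treated array E was as high as the arsenite arrays. The regulators Irf7 (-0.85 ± 0.23) and Irf9 (-0.78 ± 0.21) and the guanylate-binding protein Gbp3 (-0.72 ± 0.20) did not pass either. Gbp6 and other genes of interferon-inducible families that passed as lower are not in that list. The count of 0 thus covers the 21 listed genes and not every interferon-induced gene on the array.

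None of 26 genes of inflammatory signalling and none of 23 acute phase proteins passed by limma. At an unadjusted p under 0.05, 3 and 2 were lower and 0 higher in both, against 13.1% of all genes. Cxcl1, a chemokine that attracts neutrophils, stood at 4.70, 4.36, 5.72, 3.94 and 5.78 with dexamethasone and arsenite, against 10.06, 5.24, 4.52, 9.62 and 9.89 with arsenite. In 3 arsenite arrays it was high and 2 lay within the treated range, and the difference of -2.96 ± 1.00 did not pass (adjusted p = 0.243). Irf1, an interferon regulatory factor, was lower in all 5 treated arrays, at 5.13 to 6.22 against 6.39 to 7.47, with a difference of -0.95 ± 0.23 (adjusted p = 0.0665). The acute phase list ran from 10.24 to 12.08 in treated arrays, against 9.78 to 12.27 in arsenite arrays. Immediate early genes had 0 of 18 passing, and their spread was set by arsenite array F, described above.

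The clock list had 2 genes that rose of 19, Usp2 and Per1, against 0.835% of all genes. Its median was 0.34, and 16 were above 0. Usp2, a rhythmic ubiquitin protease, stood at 4.09, 5.36, 4.59, 5.87 and 4.71, against 3.25, 3.73, 3.82, 4.15 and 3.44, and rose by 1.25 ± 0.27 (adjusted p = 0.0259). Array A of the treated group lay just below arsenite array E. Without treated array E 1 clock gene passed, and 0 did by limma without the 4 arrays that stood apart. Usp2 lost its call under 7 of 20 settings (adjusted p up to 0.165) and Per1 under 12, and both lost it without treated array C, arsenite array A or arsenite array F. Ciart, a repressor of the clock, differed by 0.86 ± 0.21 and missed the threshold (adjusted p = 0.0569). Cdkn1a was the 1 gene of 15 in the growth arrest and p53 list that rose, against 0.835% of all genes. Gadd45b, a growth arrest gene, differed by 1.41 ± 0.34 (adjusted p = 0.06). Rrm2 was the 1 of 20 cell cycle genes that rose, against 0.835% of all genes, and the list median was 0.01. Cdk1, the mitotic kinase, stood at 7.21 in treated array E and at 3.55 to 4.65 in the other 4, against 3.08 to 3.79 with arsenite, and did not pass.

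**Figure D3:**
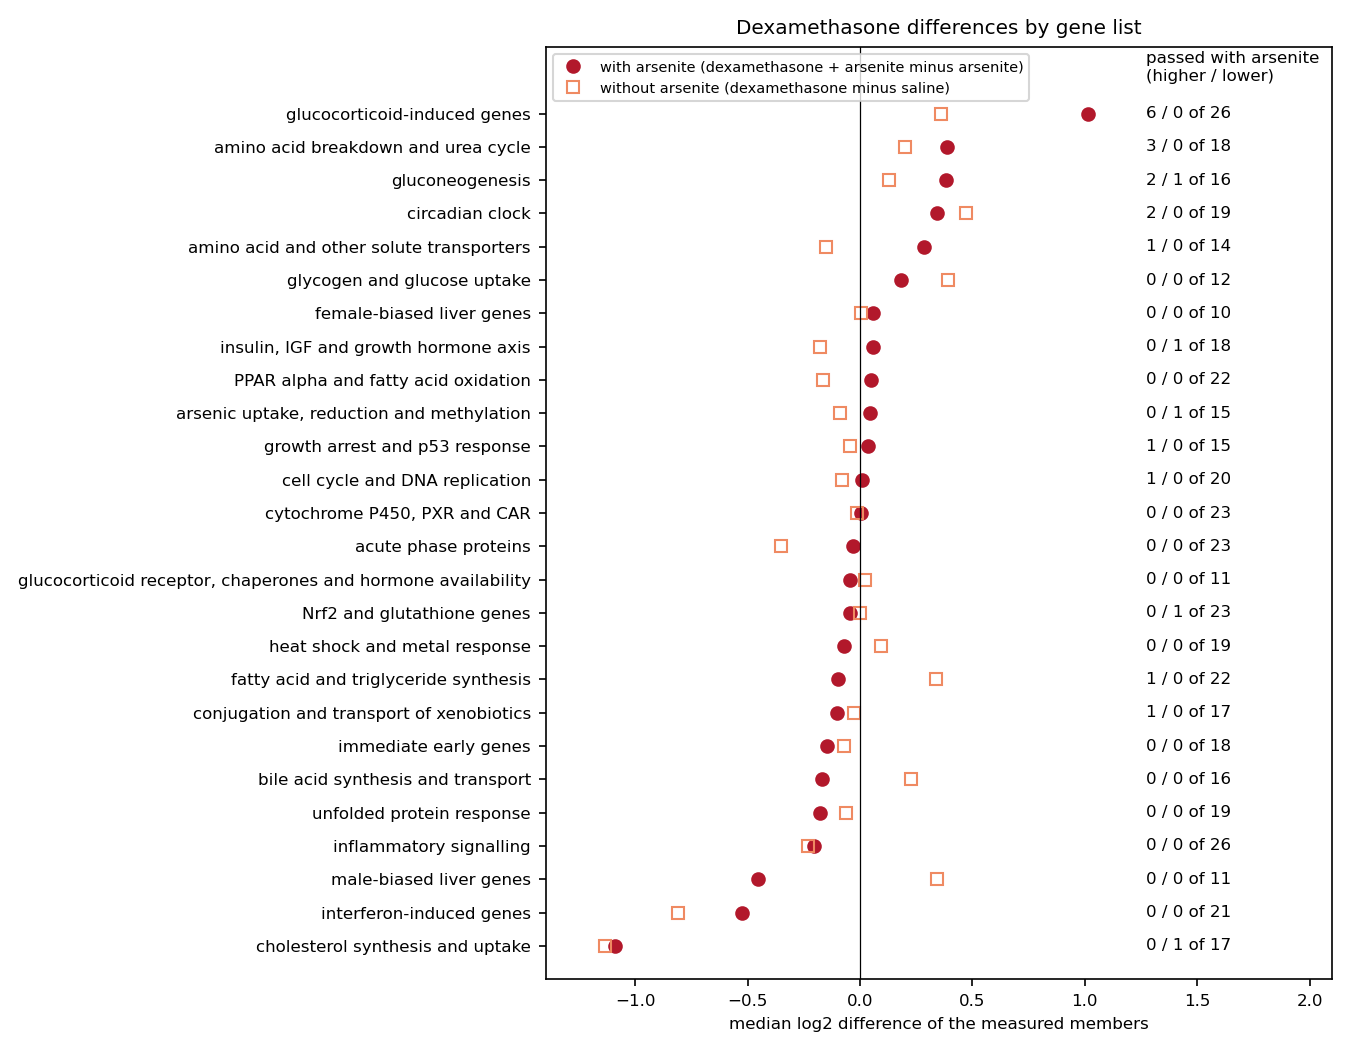
Median log2 difference of the measured members of the 26 pathway lists, with arsenite (filled circles, dexamethasone with arsenite minus arsenite) and without (open squares, dexamethasone minus saline). The numbers at the right count members that passed with arsenite, higher and lower. Glucocorticoid-induced genes are highest with arsenite, at 1.02, and cholesterol genes lowest, at -1.09.

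Markers of other cell types were followed because liver is a mixture of cells. In such tissue fewer cells of a type and less RNA per cell cannot be told apart. In 14 lists of cell types and liver zones, none of 126 measured entries passed by limma. At an unadjusted p under 0.05, 9 were higher and 8 lower, where 13.1% of all genes stood in either direction. Neutrophil markers had a mean of 2.33 to 4.21 in treated arrays, against 2.43 to 3.63 in arsenite arrays, and Kupffer cell and macrophage markers 5.63 to 7.21, against 5.81 to 7.18. Class II antigen presentation genes were all 6 below 0, with a median of -0.44 and levels of 3.96 to 6.07, against 4.51 to 5.95. Endothelial markers had a median of 0.21 and a mean level of 4.52 to 5.07, against 4.02 to 4.69. Lyve1, a receptor of sinusoidal endothelium, stood at 8.23, 5.38, 5.41, 6.61 and 5.16, against 5.28, 4.03, 2.23, 4.57 and 4.29, a difference of 2.08 ± 0.63 that did not pass (adjusted p = 0.168). Stellate and fibroblast markers stood at 4.63 to 4.94 in 4 treated arrays and at 6.01 in array E, against 4.52 to 5.21.

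**Figure D4:**
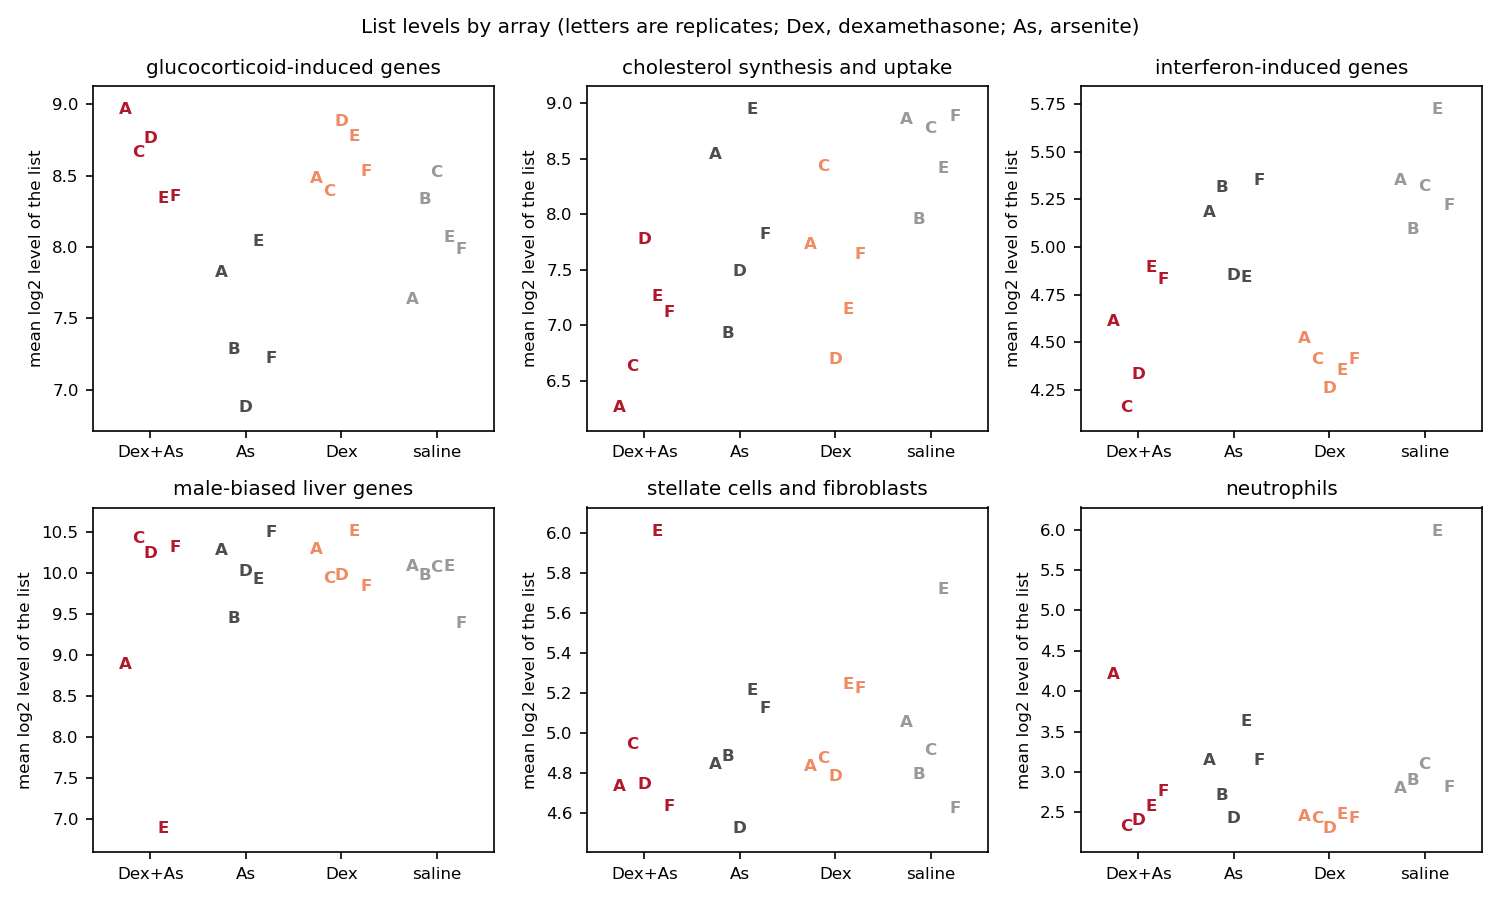
Mean log2 level of 6 lists in each array, where the letters are the replicates. Treated array E stands at 6.88 for male-biased genes and at 6.01 for stellate markers, treated array A at 4.21 for neutrophil markers, and the 5 dexamethasone with arsenite arrays lie above the 5 arsenite arrays for glucocorticoid-induced genes.

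The same contrast without arsenite, dexamethasone minus saline, shares no array with the main comparison. It had 782 passing probe sets (1.74%), 443 higher and 339 lower, and 1717 whose groups did not overlap (3.81%). By gene, 243 were higher (1.34%) and 221 lower (1.21%). Of the probe sets that passed with arsenite, 254 passed without it in the same direction, 153 higher and 101 lower, and 0 in the opposite direction. They make up 64% of those called with arsenite and 32.5% of those called without. Of the 397 called with arsenite, 396 had the same sign without it, and of the 782 called without, 768 had the same sign with it. Across all probe sets the 2 differences had a Pearson correlation of 0.668, and 0.780 over 5912 probe sets with a mean level above 6. These correlations are over probe sets of 1 experiment, which are not independent. For the probe sets called with arsenite the median size was 1.03 with and 0.96 without it, and for those called without it 0.67 with and 1.01 without. Each set was chosen on 1 of its 2 values, so the difference in size is a description.

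Several of the largest differences were of like size in both contrasts. Fam107a differed by 5.80 with arsenite and by 6.50 without, and Rrm2 by 3.14 and 3.26. Crot differed by -2.01 and -2.15, Gbp6 by -2.18 and -2.49 and Adh4 by -1.61 and -1.88. Sult1e1 rose by 3.74 with arsenite and by 4.82 without, a gap of -1.08 (limma unadjusted p = 0.165). Cdkn1a differed by 3.39 with arsenite and by 2.23 without, where it did not pass (limma adjusted p = 0.0588) and its groups overlapped. Lpin1 passed in both, at 3.15 and 1.76, and its groups overlapped without arsenite. The test of the difference between both effects, the interaction, was past the threshold for 0 probe sets by limma, with 1560 at an unadjusted p under 0.05 where chance gives 2252, and it was also 0 under every alternative setting in which it was fitted. So no gene here is shown to respond differently with arsenite. The smallest interaction p-values belonged to Cenpm, a centromere protein (0.75, unadjusted p = 0.000145), Zmynd10 (0.60, unadjusted p = 0.000371), Galc, a lysosomal galactosidase (-1.22, unadjusted p = 0.000383), Tbc1d31 (-1.77, unadjusted p = 0.000642) and Ppfia2 (-0.37, unadjusted p = 0.000664), each with a limma adjusted p of 1. Galc and Tbc1d31 rose without arsenite, by 1.57 and 1.77, and differed by 0.35 and 0.00 with it.

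**Figure D5:**
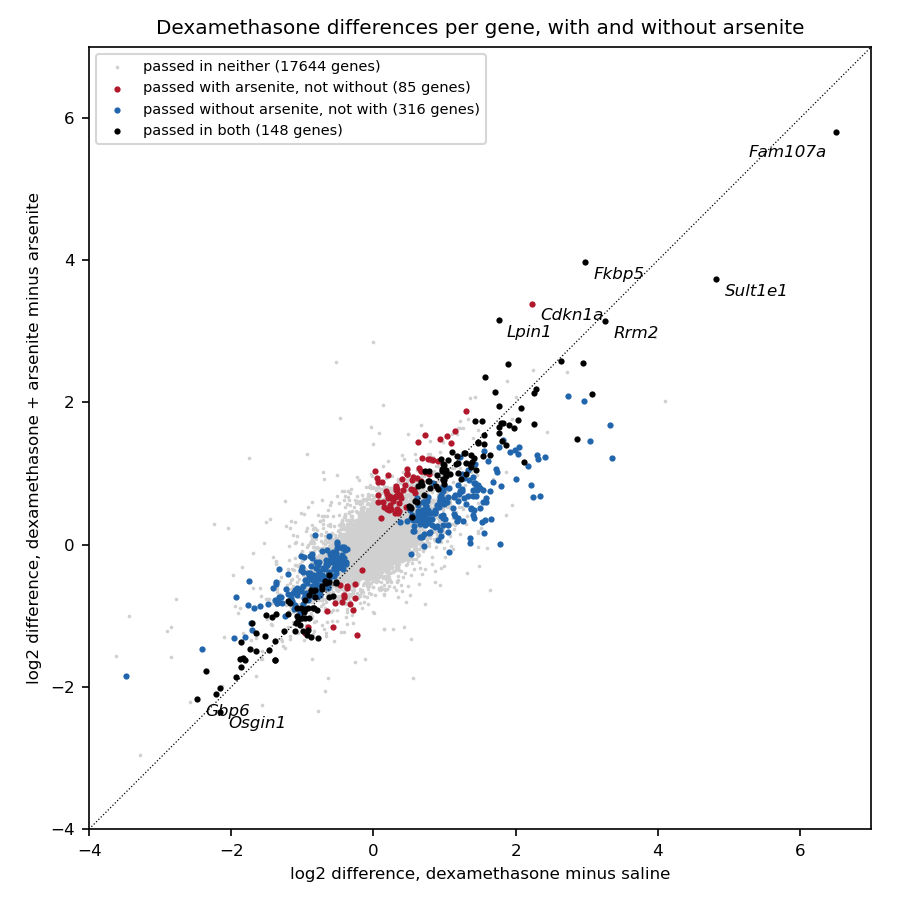
Each point is 1 of 18193 genes, with the log2 difference of dexamethasone with arsenite minus arsenite on the vertical axis and of dexamethasone minus saline on the horizontal axis, and the dotted line marks equal differences. Of the genes, 148 passed in both, 85 with arsenite and not without, and 316 without and not with, and the genes that passed in both have the same sign on both axes.

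Some named genes had a larger difference with arsenite than without. Lpin1 averaged 10.86 with dexamethasone and arsenite, 7.71 with arsenite, 11.05 with dexamethasone and 9.29 with saline. Its interaction of 1.39 had an unadjusted p of 0.0244 and an adjusted p of 1 by limma. Slc43a1 averaged 5.14, 4.16, 4.71 and 4.51 in the same order, with an interaction of 0.77 (unadjusted p = 0.00564), and Alas1, the first enzyme of heme synthesis, had an interaction of 1.73 (unadjusted p = 0.005) and a difference of 1.02 ± 0.39 that did not pass. In the opposite direction, Plin5 rose by 2.11 with arsenite and by 3.08 without (interaction unadjusted p = 0.0136). The glucocorticoid-induced list had a median of 1.02 with arsenite and 0.36 without, and the interferon list -0.53 and -0.81. Of the 21 interferon genes 9 fell without arsenite, against 1.21% of all genes. When treated array E was left out, the medians with arsenite were 1.06 and -0.74. No member of either list passed in the interaction.

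Arsenite minus saline uses the same arsenite arrays as the main comparison, so a low value in those arrays enters both with opposite sign. No probe set passed in it by limma, and 1414 stood at an unadjusted p under 0.05. The glucocorticoid-induced list had a median of -0.65 in that contrast, with 2 of 26 above 0. Fkbp5 differed by -1.05, Lpin1 by -1.58, Tsc22d3 by -0.85 and Per1 by -0.68, while Fam107a differed by -0.45, Rrm2 by -0.88 and Crot by -0.07. The part of the arsenite arrays' own levels in the larger differences was not tested.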

How the data were processed

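Background correction, normalization and summarisation were done by the authors with RMA, per the submitters' processing notes, and the deposited values are log2 expression per probe set. The software version was not given in the sources used here. RMA pulls dim probe sets together, so their differences can be understated. After dropping 64 control probe sets of 45101, all 45037 others were tested. Symbols came from the platform annotation and 10092 probe sets have no single symbol. Groups came from the labels. Group means of the 20 injection arrays were compared by limma 3.58.1, run in R 4.3.3 (16 residual degrees of freedom), and p-values adjusted by Benjamini-Hochberg with a threshold of 0.05. The script was tested on simulated data. The members and the 40 gene lists (665 entries, 597 measured) were chosen with earlier results of these data known. The rule named the 15 largest rises and 15 largest falls that passed without overlap, up to 5 genes per list and the 5 smallest interaction p-values, and the text names fewer. Genes used to describe single arrays (Fos, Mki67, Top2a, Col3a1, Lcn2, Xist, Eif2s3y), and Nr3c1, Hsd11b1, Pck1, G6pc, Igf1, Cyp7a1, As3mt and Hspa1b, were chosen after their values were seen. Samples were treated as unpaired, since no label says that a replicate letter marks a shared litter, batch or day. Deviations of the 4 same-letter pairs between both groups compared had correlations from -0.065 to 0.17, and so few pairs cannot exclude pairing. Promoter windows are from RefSeq and were searched in Python 3.11.15. Alternatives covered the arrays in the fit, the variance model, array weights, normalization, filters, blocks and left-out arrays.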

Additional observations from a re-analysis of the deposited data

Results flagged for a closer look

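Within groups of 5 arrays, values far from the other 4 were looked for in 78 genes and 40 list means in both groups compared. Of these 236 groups of values 10 stood out, 3 of 156 for genes and 7 of 80 for list means. A rate of 1 in 20 gives about 12 in all. This figure is a rough guide, since the values share arrays and many genes were named for groups that did not overlap. Pigf stood at 6.12 in dexamethasone with arsenite array E, against 7.54 to 7.62 in the other 4. In the same array stellate cell and fibroblast markers had a mean of 6.01, against 4.63 to 4.94, and periportal hepatocyte markers 10.33, against 9.51 to 9.74. In dexamethasone with arsenite array A inflammatory signalling genes had a mean of 4.81, against 4.20 to 4.37, and neutrophil markers 4.21, against 2.33 to 2.76.

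Among arsenite arrays, Foxo1 stood at 5.86 in D, against 6.57 to 6.71, and growth arrest and p53 genes at a mean of 4.29 in D, against 4.87 to 5.07. Irf1 stood at 7.47 in A, against 6.39 to 6.62. Immediate early genes had a mean of 6.41 in F, against 3.88 to 4.33, and pericentral hepatocyte markers 7.98 in E, against 8.73 to 8.98.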

How the results depend on the processing

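The number of probe sets called for dexamethasone with arsenite, 397 here, was 119 with only the arrays of both groups compared, 846 with all 59 arrays in 1 fit, 620 when the 4 arrays that stood apart formed a block, and 391 when they were dropped. It lay between 219 and 487 when single arrays of both groups were left out, the lowest without dexamethasone with arsenite array C. Of the 119, 110 were among the 397. The 4 arrays were those with the lowest score in each group on the main component of within-group variation. A block of them takes up that variation by construction, so the 620 is a description. The number without arsenite, 782 here, was 1138 with only its own 10 arrays, where the count with arsenite was lower instead, 1371 with all 59 arrays and 1612 with array weights, and 695 to 955 with single arrays left out. The interaction count was 0 in every setting in which it was fitted. With the replicate letter as a block the counts were 284, 644 and 0, and no label says what samples of 1 letter share. Of the 78 genes followed through the alternatives, none changed sign where it passed here or in the alternative. Tbc1d31, which did not pass, ranged from -0.28 to 0.19. Of the 40 among them that did not pass, 26 passed under at least 1 alternative. Nr3c1, Hsd11b1, Pck1, G6pc, Igf1, Cyp7a1, As3mt and Hspa1b were not followed in this way. Lists without array E, without the 4 arrays apart and with only the groups compared were added after seeing the data. Depth of signal limits genes near the array medians. The causes were not tested.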
